A study of Mus musculus with 4 samples.

Results

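The 40 genes described here make up the protein-folding and secretory machinery of the endoplasmic reticulum (ER) and the unfolded protein response (UPR) that adjusts it. They were taken by gene symbol, with no threshold on a measured value, and all 40 were found among the 32245 symbols of the deposited matrices. By role they are 7 sensors and stress regulators, 14 chaperones and folding enzymes, 8 genes of ER-associated degradation and 11 subunits of the translocon and the signal peptidase. For short the first role is called sensors below, though Atf4, Ddit3, Trib3 and Ppp1r15a in it are stress regulators.

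Proteins bound for secretion enter the ER through the Sec61 channel, lose their signal peptide to the signal peptidase and fold with the help of chaperones such as BiP, the product of Hspa5. Chains that fail to fold are taken back to the cytosol and degraded. When unfolded chains accumulate, the sensors IRE1 (Ern1), PERK (Eif2ak3) and ATF6 start the UPR. IRE1 splices the mRNA of Xbp1, PERK slows translation and raises ATF4, and ATF6 is cut to a transcription factor, so that genes of folding, degradation and translocation are transcribed. Under lasting stress ATF4 drives Ddit3 (CHOP), Trib3 and Ppp1r15a (GADD34), the last of which restores translation. Plasma cells, which secrete antibody at a very high rate, depend on the XBP1 branch, and myeloma cells descend from plasma cells.

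Bone marrow of the 5TMM mouse model (5TGM in the sample labels) was measured cell by cell, with RNA sequencing of cells caught in droplets. Mice of the C57BL/KawRij strain had received 5TGM1-luc myeloma cells, a single mouse myeloma line with a luciferase reporter, into the vein at 6 weeks of age, and 3 weeks later they were given vehicle or 10 mg/kg of purinostat mesylate (PM), an inhibitor of histone deacetylases of classes I and IIb. Marrow was taken 24 h after treatment from 2 vehicle and 2 PM mice, with lysis of red cells and 1 library per mouse. The labels do not tell plasma cells of the host from cells of the injected line.

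The files count unique molecular identifiers (UMIs, molecules told apart by a random tag) for every gene in every barcode, with 69828595 to 109447030 UMIs per mouse in 8242 to 13848 barcodes, of which 39743 cells in all passed the filters on genes and mitochondrial counts. Pairs of libraries shared 18 to 41 barcodes. Cells were clustered without the 40 genes and named from marker lists, and a class name stands for cells like that type by these transcripts. A further 3155 cells stayed unnamed. Myeloma cells (171 cells, 21 to 92 per mouse) and other plasma cells (276 cells, 42 to 95 per mouse) both carried Sdc1, the plasma cell surface proteoglycan, at 304 to 469 and 219 to 273 CPM (counts scaled to a total of 1000000). They were told apart by the homeobox gene Rhox5, which had a UMI in 96.8% to 100% of the cells of the first class and in 0% to 8.0% of the second, which lay at 522.8 to 707.8 and at 0 to 15.5 CPM. Plasmacytoid dendritic cells (pDC, 502 cells), early neutrophils (1984 cells) and 11 further classes were measured in the same mice. Raw UMIs were summed per mouse and class and divided by the class total, so that fewer cells and less RNA per cell cannot be told apart in a UMI sum. Each UMI is a single 3′ tag of a transcript, so that CPM can be set side by side between genes without a correction for length. Such counts do not show the splicing of Xbp1, the translation of Atf4 or the cutting of ATF6. They therefore do not measure the activity of the UPR branches.

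Immunoglobulin transcripts took 50.5% to 61.7% of the UMIs in other plasma cells and 4.05% to 5.25% in myeloma cells. Since they fill the total of the first class, levels are also given as CPM of a total without immunoglobulin genes. The classes rest on clustering, so levels between classes are descriptions without a test.

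The start regions of 32 of the 40 genes were read from RefSeq (GRCm38.p6, 250 bases before to 50 bases after the start), and 3 of them are shown. Derl3 and Herpud1 had the widest gaps between the plasma cell classes, Herpud1 was also called after PM in pDC and B cells, and Hspa5 stands for BiP, the chaperone at the center of the UPR. The sites searched on both strands were the ER stress element ERSE (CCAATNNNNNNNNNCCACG), ERSE-II (ATTGGNCCACG), the UPR element UPRE (TGACGTGG) and the element CARE (TTGCATCA). UPRE ends in CGTGG, the reverse complement of the last letters of ERSE and ERSE-II, so that those sites may overlap. In the lines that follow, capitals mark the ERSE of Hspa5 at chr2:34771840-34772139 (plus strand), first CARE and then ERSE-II of Herpud1 at chr8:94386179-94386478 (plus strand), and the ERSE of Derl3, on the opposite strand, at chr10:75893148-75893447 (plus strand).
Hspa5: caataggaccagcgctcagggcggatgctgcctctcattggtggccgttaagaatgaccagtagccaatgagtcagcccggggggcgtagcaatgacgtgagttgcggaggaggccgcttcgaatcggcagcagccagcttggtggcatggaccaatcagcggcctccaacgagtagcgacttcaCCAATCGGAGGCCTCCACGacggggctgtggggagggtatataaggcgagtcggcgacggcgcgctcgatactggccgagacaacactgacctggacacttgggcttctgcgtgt
Herpud1: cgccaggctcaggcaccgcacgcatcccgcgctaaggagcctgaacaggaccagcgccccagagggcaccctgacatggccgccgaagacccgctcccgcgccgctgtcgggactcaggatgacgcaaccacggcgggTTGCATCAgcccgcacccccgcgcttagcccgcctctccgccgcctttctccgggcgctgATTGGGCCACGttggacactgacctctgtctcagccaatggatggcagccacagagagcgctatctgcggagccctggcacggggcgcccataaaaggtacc
Derl3: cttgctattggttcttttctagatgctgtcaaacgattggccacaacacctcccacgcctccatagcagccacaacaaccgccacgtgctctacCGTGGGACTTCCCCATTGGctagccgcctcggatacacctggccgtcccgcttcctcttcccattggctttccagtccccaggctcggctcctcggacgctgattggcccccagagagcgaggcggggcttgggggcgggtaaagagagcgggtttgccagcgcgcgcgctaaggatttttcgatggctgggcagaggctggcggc

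ERSE was in a start region of 9 of the 32 genes (28.1%), against 37 of the 27025 mouse genes in the same table (0.137%), a count that includes these 9. It was found in 7 of 12 chaperones and folding enzymes (Hspa5, Hsp90b1, Calr, Canx, Pdia6, Dnajc3 and Creld2) and in 2 of 7 genes of ER-associated degradation (Derl3 and Syvn1). None of the 6 sensors and stress regulators with a sequence (Atf4, Ddit3, Eif2ak3, Ern1, Ppp1r15a and Trib3) held it in this window. The same was true of the 7 translocon and signal peptidase genes with a sequence. Its place ran from 65 to 47 bases before the start in Hspa5 and from 156 to 138 bases before it in Derl3. ERSE-II was in Dnajb11 and Herpud1 (0.0444% of all genes), and CARE in Herpud1 alone among the 32 (1.03% of all). UPRE was in none of the 32, against 0.714% of all genes. A match describes the letters in this window and does not show a site in use. ERSE and ERSE-II are named for the ER stress response that these genes serve, so that their shares are no independent test.

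The module as a whole was most abundant in plasma cells. Its 40 genes together took 15388 and 13050 CPM in the myeloma cells of the vehicle mice and 11656 and 13074 CPM in those of the PM mice. In other plasma cells the sums were 13031, 11972, 12879 and 14914 CPM in the same order of mice. Hematopoietic stem and progenitor cells came nearest at 9024 to 11323 CPM. Granulocyte-monocyte progenitors lay at 8339 to 10449 CPM, basophils at 8538 to 10297 CPM and pDC at 8306 to 9434 CPM. Early neutrophils lay at 2551 to 2930 CPM and later neutrophils at 1827 to 2149 CPM, far below both plasma cell classes in every mouse. Without immunoglobulin in the total, other plasma cells stood at 26024 to 36595 CPM.

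Without immunoglobulin, the class with the highest mean was other plasma cells for 34 of the 40 genes and myeloma cells for 2 (Pdia3 and Ssr2). Calr, Canx and Ssr1 were highest in hematopoietic stem and progenitor cells (HSPC), and Trib3 in stromal cells. Over all UMIs the count of genes with their highest level in a plasma cell class was 22 of 40, of which 8 were highest in myeloma cells and 14 in other plasma cells.

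By summed level, chaperones and folding enzymes were the most abundant role in both plasma cell classes, as in every other class but the neutrophils. This role also holds the most genes, 14 of the 40, and the sums were not scaled by the number of genes. In early and later neutrophils the translocon and signal peptidase stood above chaperones in every mouse (1127 to 1173 against 869 to 1074 CPM in early neutrophils). The chaperone sum in myeloma cells was 9500 and 7665 CPM after vehicle, against 6329 and 7570 CPM after PM. HSPC at 5282 to 6947 CPM, basophils at 4991 to 6461 CPM and granulocyte-monocyte progenitors (GMP) at 4505 to 6235 CPM came near that. These classes overlapped other plasma cells, which lay at 5476 to 7652 CPM. In pDC the sum was 4272 to 4722 CPM, and in early neutrophils 869 to 1074 CPM. Hsp90b1 (GRP94), the ER member of the HSP90 family, was the leading chaperone transcript in both plasma cell classes, with 1873 to 3206 CPM in myeloma cells and 2060 to 3030 CPM in other plasma cells. Calr, a lectin chaperone that binds calcium, was instead highest in HSPC at 1664 to 2085 CPM.

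Sensors and stress regulators, the role with the fewest genes (7), had the lowest sum in both plasma cell classes. In erythroid cells ER-associated degradation lay below sensors in every mouse (252 to 286 against 369 to 628 CPM). Sensors summed to 554 to 616 CPM in myeloma cells, 447 to 513 CPM in other plasma cells, 376 to 508 CPM in pDC and 212 to 303 CPM in early neutrophils. Atf4, the transcription factor of the PERK branch, was a large part of this sum, with 252 to 301 CPM in myeloma cells.

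**Figure D1:**
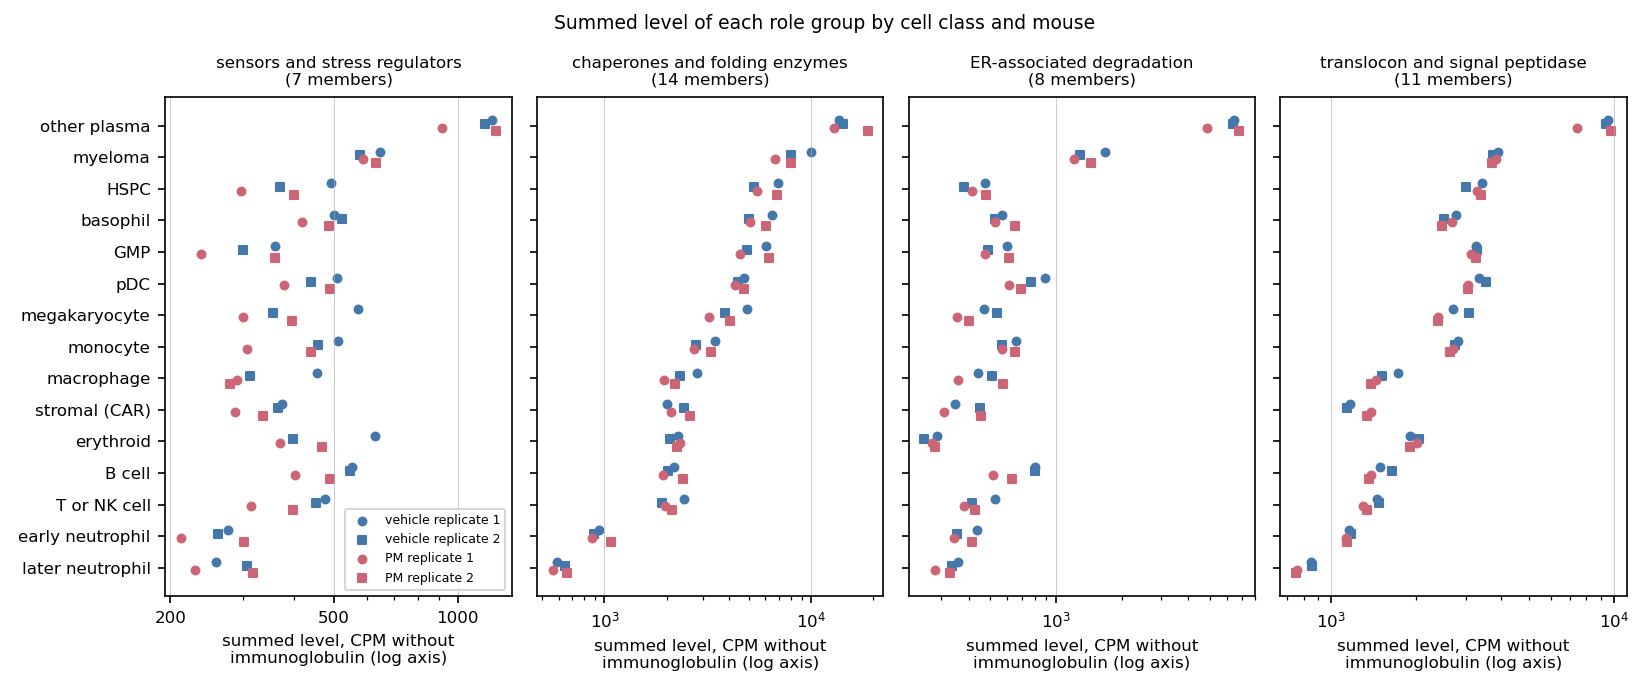
Summed level of the 4 roles (CPM without immunoglobulin genes in the total, log axis) in 15 cell classes, with 1 point per mouse, circles and squares for replicates 1 and 2, blue for vehicle and red for PM. Other plasma cells stand to the right of all other classes in each panel, with 4870 to 6812 CPM for ER-associated degradation, while sensors spread least between the remaining classes.

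By summed level of a role, the 2 plasma cell classes differed most in ER-associated degradation. Its 8 genes summed to 1591, 1237, 1145 and 1373 CPM in myeloma cells (vehicle replicates 1 and 2, then PM replicates 1 and 2) and to 2718, 2449, 2410 and 2776 CPM in other plasma cells, so that each mouse had the higher level in other plasma cells even with immunoglobulin in the total. The sum over translocon and signal peptidase, by contrast, was 3528 to 3681 CPM in myeloma cells and 3600 to 4049 CPM in other plasma cells. Per CPM of sensors, other plasma cells held 5.30 to 5.50 CPM of ER-associated degradation and myeloma cells 2.05 to 2.58. The 8 genes did not share this gap evenly. Over all UMIs 4 of 8 were higher in other plasma cells in 4 of 4 mice and 1, Derl2, was lower in 4 of 4. The mean log2 ratio (CPM + 1) was -0.73 for Derl2, 0.13 for Derl1 and -0.10 for Sel1l.

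Derl3, a derlin of the channel through which chains leave the ER, was close to absent from myeloma cells. Its UMIs were 1, 2, 2 and 1 in the myeloma cells of the 4 mice and 197, 294, 268 and 247 in other plasma cells, which is 0.617 to 1.62 against 198 to 269 CPM. Over the 4 mice the ratio was 236 (95% interval 108 to 645, exact and for counting error only). Among the 13 further classes the highest Derl3 level in any mouse was 4.96 CPM, in B cells. Herpud1, a stress-induced organizer of the degradation complex, showed the next widest gap, with 45.0, 54.2, 66 and 35.0 CPM in myeloma cells against 631, 726, 638 and 731 CPM in other plasma cells. The log2 ratio within a mouse was 3.77 ± 0.45 (SD, n = 4 mice) over all UMIs and 4.94 ± 0.57 without immunoglobulin. The ratios in this and the next paragraphs were taken on CPM + 1.

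In the chaperone role, Dnajc3 (P58IPK, a BiP co-chaperone) was 2.14 ± 0.27 higher on the log2 scale in other plasma cells over all UMIs, Creld2 1.40 ± 0.15, Dnajb9 (ERdj4) 1.13 ± 0.45 and Sdf2l1 1.10 ± 0.65. In ER-associated degradation, Edem2, a mannosidase-like protein that marks glycoproteins for removal, was 1.86 ± 0.27 higher. Ssr4, a subunit of the translocon-associated protein complex, was 1.05 ± 0.49 higher. Hspa5 and Hsp90b1 lay at a ratio near 1 on that scale, with log2 values of -0.05 ± 0.52 and -0.03, and at 1.11 ± 0.51 and 1.13 without immunoglobulin.

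The 3 genes Ssr2, Pdia3 and Canx were lower in other plasma cells on both scales in each mouse. Ssr2, another subunit of the translocon-associated complex, had a log2 ratio of -2.54 ± 0.27 over all UMIs and -1.39 ± 0.14 without immunoglobulin. The oxidoreductase Pdia3 was at -1.51 ± 0.42 and -0.35 ± 0.33, and the lectin chaperone Canx at -1.47 ± 0.37 and -0.31 ± 0.25.

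Without immunoglobulin, 32 of the 39 genes that averaged 10 CPM or more in either class were higher in other plasma cells in 4 of 4 mice, against 30.1% of all 9205 genes, and 3 were lower in 4 of 4 mice, against 34.6%. By role these were 8 of 8 genes of ER-associated degradation, 10 of 14 chaperones, 9 of 11 translocon and signal peptidase genes and 5 of 6 sensors. The median log2 ratio of the 39 genes was 1.22, and that of all genes -0.12. Over all UMIs, 14 of 39 were higher in 4 of 4 mice (9.08% of 8346 genes) and 13 lower (77.4%), with a median of 0.08 against -1.33 for all genes. The median of the module lay above that of all genes on both scales.

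**Figure D2:**
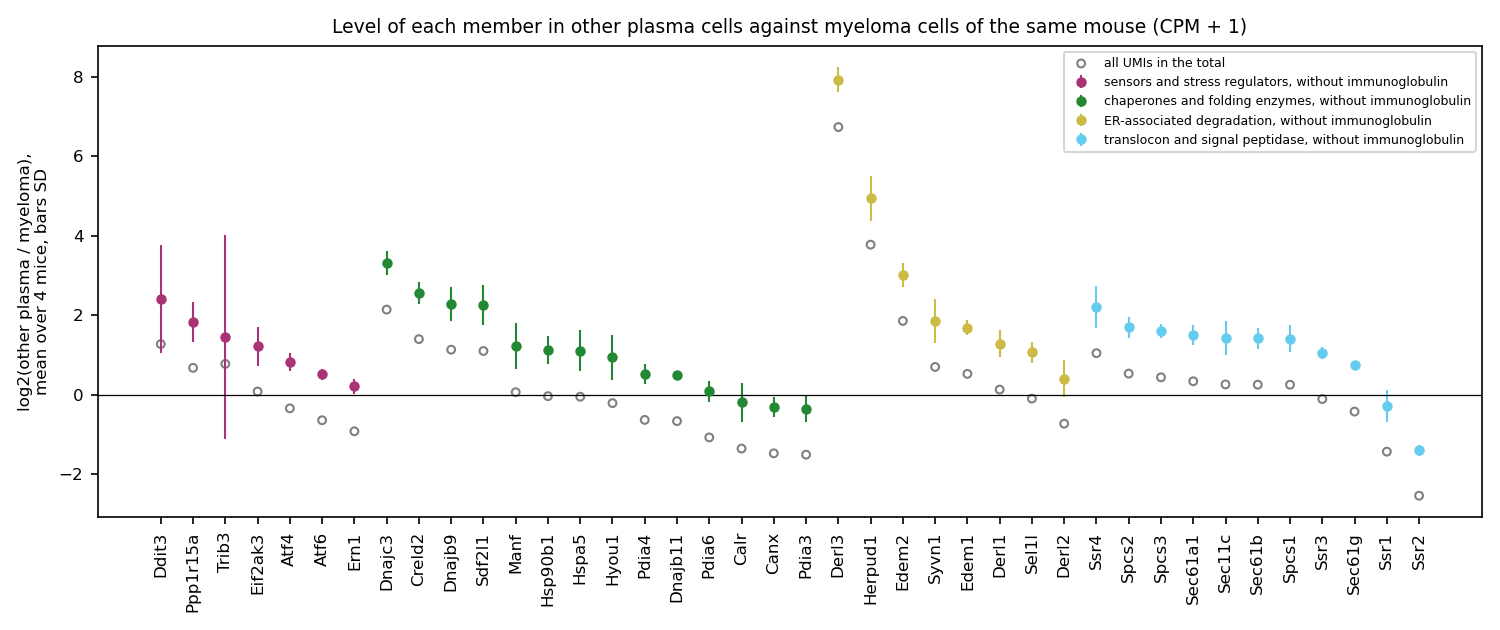
Log2 ratio of other plasma cells to myeloma cells of the same mouse for each of the 40 genes (CPM + 1), mean over 4 mice, filled points with SD bars without immunoglobulin in the total and open circles over all UMIs, colored by role. Derl3 and Herpud1 stand far above the rest, and Ssr2 lies lowest at -1.39 without immunoglobulin.

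Transcripts of the neutrophil marker list took 1.40%, 0.62%, 3.37% and 0.88% of the UMIs of other plasma cells and 0.12%, 0.39%, 1.39% and 0.15% of those of myeloma cells (vehicle replicates 1 and 2, PM replicates 1 and 2). At the nominal doublet rate 5.33% to 26.3% of other plasma cells and 0% to 28.6% of myeloma cells were marked as doublets. Without the cells over 2% of neutrophil transcripts the log2 ratio of sensors moved from -0.28 to -0.25 over all UMIs, and those of the other 3 roles by less than the spread between mice.

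Against pDC, cells with a large secretory ER, 21 of 38 genes were higher in myeloma cells in 4 of 4 mice without immunoglobulin (34.0% of all genes) and 7 were lower (40%), with a median log2 ratio of 0.48 beside -0.09 for all genes. Against early neutrophils 35 of 38 were higher (57.2% of all genes), with a median of 2.04 beside 0.61.

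The effect of PM was tested in each class by edgeR's quasi-likelihood test on the sums of 2 vehicle and 2 PM mice, and a gene was called where its p, adjusted by Benjamini and Hochberg over all genes tested, was under 0.05 and its log2 fold change over 0.5 in size. Positive values stand for more transcript after PM. Sums and ratios are given by mouse and were not tested, since the smallest p that 4 mice allow is 0.333 in a two-sided exact permutation test. Nothing in the labels says more of the mice than their treatment and number, so that the p-values measure the spread between these 4 animals. The study speaks of a pair of independent experiments in its account of these samples, but which mouse belonged to which is not given in the sources used here, so that a batch by experiment was not tested. With the number of the mouse as a replicate block, 4 genes of the module were called in B cells and 2 in later neutrophils, beside 3 and 1 without it. The share of all genes called with the block is not given here.

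In myeloma cells no gene of the module was called, of 38 tested (0.631% of 8397 genes were called). The unadjusted p was under 0.05 for 5 of the 38, and DESeq2 called 0. All 14 chaperones and folding enzymes had negative log2 fold changes, with a median of -0.32, against 3 of 6 sensors (median -0.02), 4 of 7 genes of ER-associated degradation (-0.13) and 8 of 11 of the translocon and signal peptidase (-0.10). Over all 8397 genes 50.1% were positive and the median was 0.00.

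The 5 genes with a small unadjusted p were 3 chaperones, Sel1l and Eif2ak3. Hyou1, a large ER chaperone of the HSP70 class, had 143 and 126 CPM with vehicle and 80.2 and 98.4 CPM with PM (log2 fold change -0.63, SE 0.204, edgeR adjusted p = 0.222). Manf, a chaperone cofactor that is also secreted, had 515 and 325 CPM against 273 and 301 CPM (-0.57, SE 0.209, adjusted p = 0.339). Hsp90b1 had 3206 and 2595 CPM against 1873 and 2383 CPM (-0.48, SE 0.227, adjusted p = 0.551). These 3 were among 5 of 14 chaperones with both PM mice below both vehicle mice, a count with no share over all genes to set beside it. Sel1l, the scaffold of the HRD1 ubiquitin ligase, had 651 and 461 CPM with vehicle and 354 and 388 CPM with PM (-0.61, SE 0.207, adjusted p = 0.257). Eif2ak3, which encodes the sensor PERK, had 20.2 and 22.7 CPM with vehicle and 28.4 and 45.0 CPM with PM (0.66, SE 0.305, adjusted p = 0.536). It was the only gene of the 5 with higher values in the PM mice.

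Hspa5 gave 1185 and 953 CPM in the myeloma cells of the vehicle mice and 879 and 1151 CPM in those of the PM mice, which overlap (-0.11, SE 0.221, adjusted p = 0.969). The fold change was 0.011 without vehicle replicate 1 and 0.012 without PM replicate 1. Sdf2l1, the least abundant chaperone, had 49.6, 64.7, 42.3 and 51.7 CPM (-0.37, adjusted p = 0.767). In the same order of mice, the most abundant gene of ER-associated degradation, the mannosidase-like Edem1, had 530, 429, 443 and 631 CPM (0.12, adjusted p = 0.956). The signal peptidase subunit Sec11c had 704, 583, 755 and 782 CPM and led its role (0.23, adjusted p = 0.884), and Sec61a1, the channel itself, was lowest in it with 126, 153, 155 and 154 CPM (0.11, adjusted p = 0.965). The vehicle and PM values of Sdf2l1 and Edem1 overlapped.

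Targets of the PERK branch showed no shared direction in myeloma cells. Atf4 had 301 and 281 CPM with vehicle and 281 and 252 CPM with PM (-0.15, SE 0.198, adjusted p = 0.940). Ddit3 had 12 and 21 UMIs with vehicle and 47 and 4 with PM, or 18.6, 17, 14.5 and 3.34 CPM (-0.74, SE 0.483, adjusted p = 0.767), so that its fold change rests mostly on the 4 UMIs of PM replicate 2. A pair of overlapping gene models share the symbol Ddit3. The second had 0 UMIs in each library, and the split of reads between them is uncertain. Ppp1r15a had 43.4, 23.5, 28.4 and 43.4 CPM, and its groups overlapped (0.10, SE 0.30, adjusted p = 0.984). Trib3 had 0, 1, 9 and 0 UMIs and Derl3 1, 2, 2 and 1, and neither passed the filter on low counts.

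In other plasma cells no gene of the module was called either, of 39 tested (0.126% of 6362 genes), with 0 at an unadjusted p under 0.05 and 0 called by DESeq2. Here 10 of 14 chaperones had positive log2 fold changes, with a median of 0.20, while 5 of 6 sensors (median -0.16), 6 of 8 genes of ER-associated degradation (-0.19) and 7 of 11 of the translocon and signal peptidase (-0.10) were negative. Over all 6362 genes 49.7% were positive.

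Hspa5 had 673 and 995 CPM in other plasma cells with vehicle and 1127 and 1317 CPM with PM (0.36, SE 0.290, adjusted p = 0.886). Calr had 340 and 329 CPM against 517 and 546 CPM (0.49, SE 0.226, adjusted p = 0.728), and Sdf2l1 87.5 and 90.7 CPM against 170 and 115 CPM (0.47, SE 0.234, adjusted p = 0.766). Over all UMIs these 3 were among 8 of 14 chaperones with both PM mice above both vehicle mice, a count with no share over all genes to set beside it. Immunoglobulin took 57.7% and 61.7% of the UMIs of this class with vehicle and 50.5% and 59.2% with PM. Its part in that count was not tested. None of the 14 chaperones passed the test. Without immunoglobulin in the total, the summed chaperones overlapped between the groups (13598 and 14295 CPM against 12834 and 18776 CPM). Derl3 had 200, 269, 198 and 233 CPM (-0.32, SE 0.268, adjusted p = 0.890), and Herpud1 631, 726, 638 and 731 CPM (-0.17, adjusted p = 0.955). The values of Derl3 and Herpud1 overlapped between the groups. Atf4 had 222, 218, 214 and 224 CPM (-0.19, adjusted p = 0.944), Ddit3 16.3, 33.9, 37.7 and 33.9 CPM (0.29, adjusted p = 0.946), and Ppp1r15a 97.7, 36.6, 32.5 and 73.4 CPM (-0.48, adjusted p = 0.961). Trib3 had 6, 0, 1 and 4 UMIs and was not tested. The median of the module in this class, -0.10, turned to 0.090 without PM replicate 1, to 0.089 without doublets and to 0.094 without the cells rich in neutrophil transcripts.

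**Figure D3:**
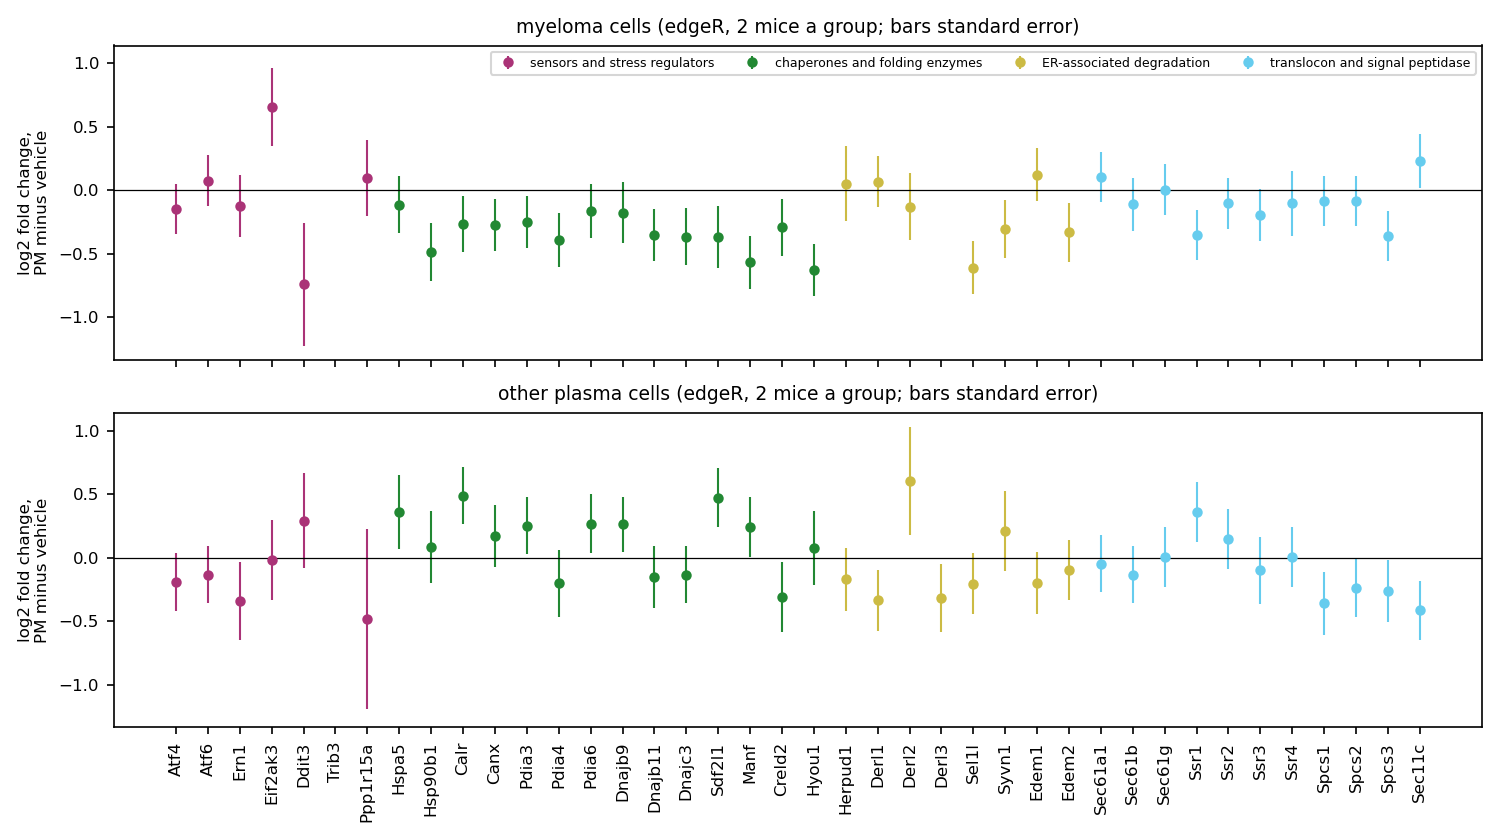
Log2 fold change (PM minus vehicle) of each tested gene in myeloma cells (upper panel) and other plasma cells (lower panel), from edgeR with 2 mice per group, bars standard errors, colored by role. All 14 chaperones lie below 0 in myeloma cells and 10 of 14 above 0 in other plasma cells, and none of the genes was called.

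Whether the effect of PM differed between the plasma cell classes was tested as an interaction with the mouse as a block. No gene of the module was called, of 39 tested (0.366% of 9007 genes), although 6 had an unadjusted p under 0.05. These were the chaperones Calr (difference -0.71, SE 0.236, adjusted p = 0.302), Manf (-0.72, adjusted p = 0.398), Sdf2l1 (-0.78, adjusted p = 0.499) and Hsp90b1 (-0.49, adjusted p = 0.541), with Ssr1 (-0.65, adjusted p = 0.524) and Sec11c (0.70, SE 0.222, adjusted p = 0.257), where negative values stand for a lower effect in myeloma cells. The median difference of the 39 genes was -0.15, beside 0.07 for all genes. Against early neutrophils likewise 0 of 38 were called (1.46% of 11339 genes), with 5 at an unadjusted p under 0.05.

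The ratio of the summed chaperones to the summed sensors moved in opposite directions in the 2 plasma cell classes, a difference that was not tested. In myeloma cells it was 15.4 and 13.8 after vehicle, against 11.3 and 12.6 after PM. In other plasma cells it was 11.2 and 12.3 after vehicle, against 14 and 15.2 after PM. Both PM mice thus lay below both vehicle mice in the first class and above them in the second. Of the 15 classes, myeloma cells were the only one with both PM mice below, 8 classes had both PM mice above, and 6 overlapped. The classes come from the same 4 mice and are not independent, and no reference share was set beside these counts. Among the 8 were HSPC (14.2 and 14.3 against 18.4 and 17.1), monocytes (6.67 and 6.05 against 8.81 and 7.43), B cells (3.92 and 3.72 against 4.77 and 4.90) and early neutrophils (3.43 and 3.41 against 4.10 and 3.55). Of the 8, only other plasma cells had a chaperone sum higher in both PM mice over all UMIs (5752 and 5476 CPM against 6351 and 7652 CPM). Without immunoglobulin in the total their sums overlapped (13598 and 14295 CPM against 12834 and 18776 CPM). In B cells, T or NK cells, monocytes and stromal cells the sensor sum was lower in both PM mice and the chaperone sum overlapped. In HSPC, GMP and early neutrophils both sums overlapped. In myeloma cells the chaperone sum was lower in both PM mice and the sensor sum overlapped. The chaperone sum of PM replicate 2 there, 7570 CPM, lay close to the 7665 CPM of vehicle replicate 2. The ratio of translocon to sensors was 5.98 and 6.49 after vehicle, against 6.50 and 5.85 after PM in myeloma cells, and 7.90 and 8.05 against 8.09 and 7.89 in other plasma cells, which overlap in both classes.

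**Figure D4:**
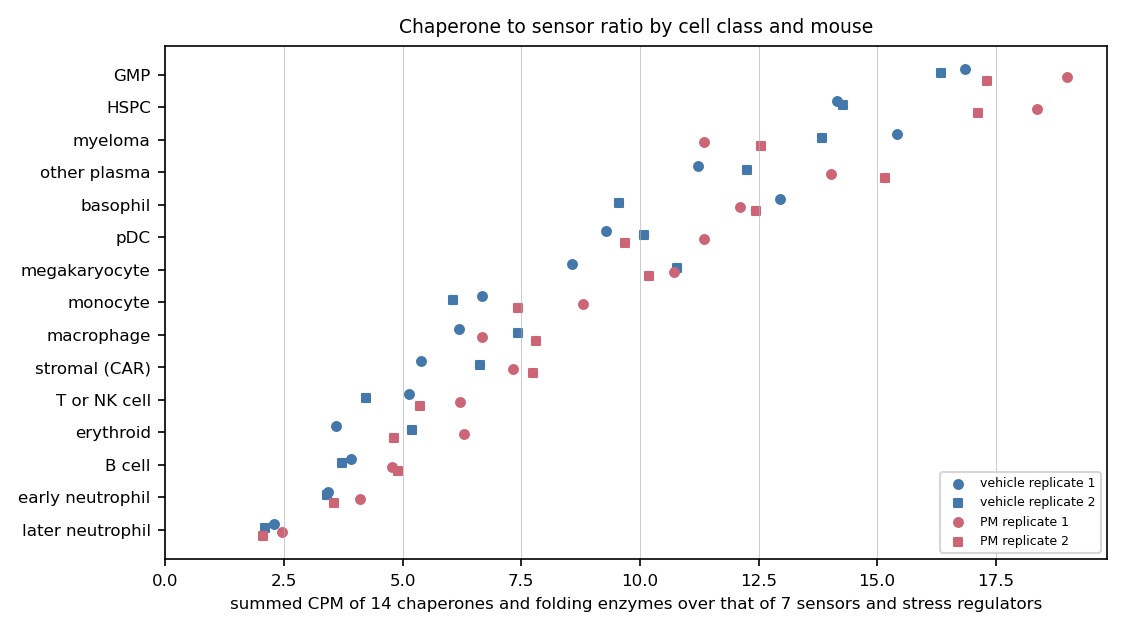
Summed CPM of the 14 chaperones and folding enzymes over that of the 7 sensors and stress regulators in 15 cell classes (linear axis from 0), with 1 point per mouse, blue for vehicle and red for PM. Myeloma cells are the only class with both PM mice to the left of both vehicle mice.

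Transcripts induced by handling of cells took 0.761% and 0.698% of the UMIs of myeloma cells with vehicle and 0.731% and 0.879% with PM, and 0.624% and 0.50% against 0.380% and 0.545% in other plasma cells. These overlap between the groups in both classes, while in HSPC they took 1.22% and 1.16% against 0.831% and 1.05%, lower in both PM mice. Mitochondrial counts were 6.69%, 6.58%, 6.61% and 6.77% of UMIs in myeloma cells and 2.46%, 2.81%, 3.28% and 2.57% in other plasma cells, which overlap. Among the 8 classes with a higher ratio after PM they were higher in both PM mice in HSPC (3.72% and 4.04% against 4.98% and 4.34%), GMP (3.19% and 3.09% against 4.29% and 4.15%), T or NK cells (4.86% and 4.64% against 5.33% and 5.56%) and early neutrophils (1.46% and 1.34% against 1.66% and 1.67%), and lower in both in stromal cells (4.05% and 4.59% against 3.07% and 2.22%). Median UMIs per cell were lower in both PM mice in other plasma cells (21721.5 and 16921 against 14001 and 15510), GMP and early neutrophils. The share of myeloma cells marked as doublets was also lower in both PM mice (28.6% and 22.2% against 18.5% and 0%). In other plasma cells it overlapped (16.7% and 5.33% against 26.3% and 12.5%). The part of these in the ratios was not tested.

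pDC were the only one of the 4 classes above with a called gene. Herpud1 had 418 and 325 CPM with vehicle and 206 and 258 CPM with PM (log2 fold change -0.71, SE 0.159, edgeR adjusted p = 0.00411), and both PM mice lay below both vehicle mice. It was 1 of 38 genes tested, beside 0.291% of 8243 genes that were lower and 1.6% called in either direction. The call was lost with DESeq2 (adjusted p = 0.411), without vehicle replicate 1 (0.213) and without PM replicate 1 (0.144). In the 2 clusters that make up the class the fold changes were -0.80 (adjusted p = 0.0566) and -0.65 (adjusted p = 0.202). Edem1 had 122 and 96.7 CPM against 62.7 and 77.3 CPM (-0.67, SE 0.217, adjusted p = 0.114), and Ssr1, of the translocon-associated complex, 396 and 388 CPM against 255 and 317 CPM (-0.50, SE 0.154, adjusted p = 0.0828), and neither passed. The summed level of ER-associated degradation was 887 and 770 CPM after vehicle, against 613 and 689 CPM after PM. Hspa5 had 615, 639, 566 and 691 CPM and Atf4 255, 211, 173 and 228 CPM in pDC, with overlapping groups and adjusted p of 0.976 and 0.669. Ddit3 had 13.1, 24.2, 15.4 and 34.6 CPM (0.27, adjusted p = 0.909) and Ppp1r15a 43.1, 15, 11.8 and 32.0 CPM (-0.34, adjusted p = 0.889), while Trib3 had no UMI in this class.

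In early neutrophils 0 of 38 genes were called (3.07% of 10075 genes), with 3 at an unadjusted p under 0.05 and 0 called by DESeq2. Those 3 were Edem1 (-0.33, adjusted p = 0.225), Calr, with 56.5 and 51.3 CPM against 64.0 and 70.4 CPM (0.25, SE 0.113, adjusted p = 0.311), and Spcs3 (-0.29, adjusted p = 0.296). Herpud1, lower after PM in pDC, had 30.6 and 28.5 CPM here with vehicle and 33.8 and 38.1 CPM with PM (0.21, SE 0.125, adjusted p = 0.459). The difference of the Herpud1 effect between pDC and early neutrophils was -0.91 (SE 0.192, edgeR interaction, adjusted p = 0.000871), in a comparison chosen after these values were seen, where 0.932% of 11161 genes were lower and 1.3% called in either direction.

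Of the 15 classes B cells held the most called genes, with 3 of 39 lower after PM (2.74% of 10695 genes were lower and 5.05% called in either direction). Herpud1 fell from 329 and 337 CPM with vehicle to 132 and 179 CPM with PM (-1.10, SE 0.151, adjusted p = 0.00043). Sec11c fell from 312 and 395 CPM to 227 and 208 CPM (-0.70, SE 0.152, adjusted p = 0.0128). Syvn1, the HRD1 ubiquitin ligase that works with Sel1l and Herpud1, fell from 187 and 176 CPM to 105 and 140 CPM (-0.57, SE 0.152, adjusted p = 0.0407). The Syvn1 call was lost under 6 of 13 alternatives, among them DESeq2 (adjusted p = 0.272) and leaving out vehicle replicate 1 (0.0947), vehicle replicate 2 (0.128) or PM replicate 1 (0.480). The Sec11c call was lost without vehicle replicate 2 (0.188), PM replicate 1 (0.0963) or PM replicate 2 (0.115), and that of Herpud1 under none of 13. All 6 tested sensors and stress regulators had negative log2 fold changes (median -0.40) and 9 of 14 chaperones positive ones (median 0.06). Set against early neutrophils, in an interaction chosen after these values were seen, the difference for Herpud1 was -1.28 (SE 0.181, edgeR adjusted p = 7.1e-10), and Syvn1 and Sec11c were called as well (4.85% of 11763 genes in either direction, 2.71% lower). Against myeloma cells 4 genes of the module differed in their response, Calr, Manf, Sel1l and Sec11c (1.82% of 10796 genes). No gene of the module was called between pDC and myeloma cells (0.223% of 9422 genes) or between later and early neutrophils (4.69% of 11397 genes).

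The makeup of the B cell class also moved between the mice. Its cluster of proliferating precursors that carry Rag1 and Vpreb3 held 85 of 242 and 507 of 987 B cells with vehicle and 198 of 1458 and 130 of 743 with PM, and Herpud1 and Sec11c were more abundant there than in the other B cells. Within this cluster 8 of 37 genes were called (8.9% of 9372 genes). Those lower (4.32% of genes) were Herpud1, from 537 and 453 CPM to 155 and 269 CPM (-1.16, SE 0.204, adjusted p = 0.000664), Dnajb9, from 56.3 and 62.4 CPM to 25.8 and 23.7 CPM (-1.20, adjusted p = 0.00361), Sec11c (-0.79, adjusted p = 0.00343) and Eif2ak3, from 64.7 and 68.0 CPM to 29.6 and 36.1 CPM (-0.97, adjusted p = 0.0115). Those higher (4.58% of genes) were 4 chaperones. Hspa5 rose from 279 and 228 CPM to 358 and 479 CPM (0.81, adjusted p = 0.00435), Calr from 191 and 228 CPM to 385 and 423 CPM (1.00, adjusted p = 0.000468), Canx from 228 and 273 CPM to 343 and 426 CPM (0.67, adjusted p = 0.0178) and Sdf2l1 from 36.6 and 17.2 CPM to 42.8 and 48.4 CPM (1.15, adjusted p = 0.0201).

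Other transcripts moved with these. Median UMIs per cell in this cluster were 2521 and 2592 after vehicle, against 4960 and 4156 after PM. Rag1 stood at 352 and 476 CPM against 168 and 148 CPM, Vpreb3 at 1933 and 2009 against 1113 and 1216 CPM and Ighm at 5072 and 5743 against 3520 and 4165 CPM, while Mki67 overlapped (636, 784, 684 and 885 CPM). Their part in the 8 calls was not tested. In the remaining B cell clusters 0 genes of the module were called (1.95% and 0.423% of genes), and Herpud1 had 126, 127, 109 and 113 CPM in the first (-0.22, adjusted p = 0.698) and 154, 162, 143 and 139 CPM in the second (-0.15, adjusted p = 0.959).

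**Figure D5:**
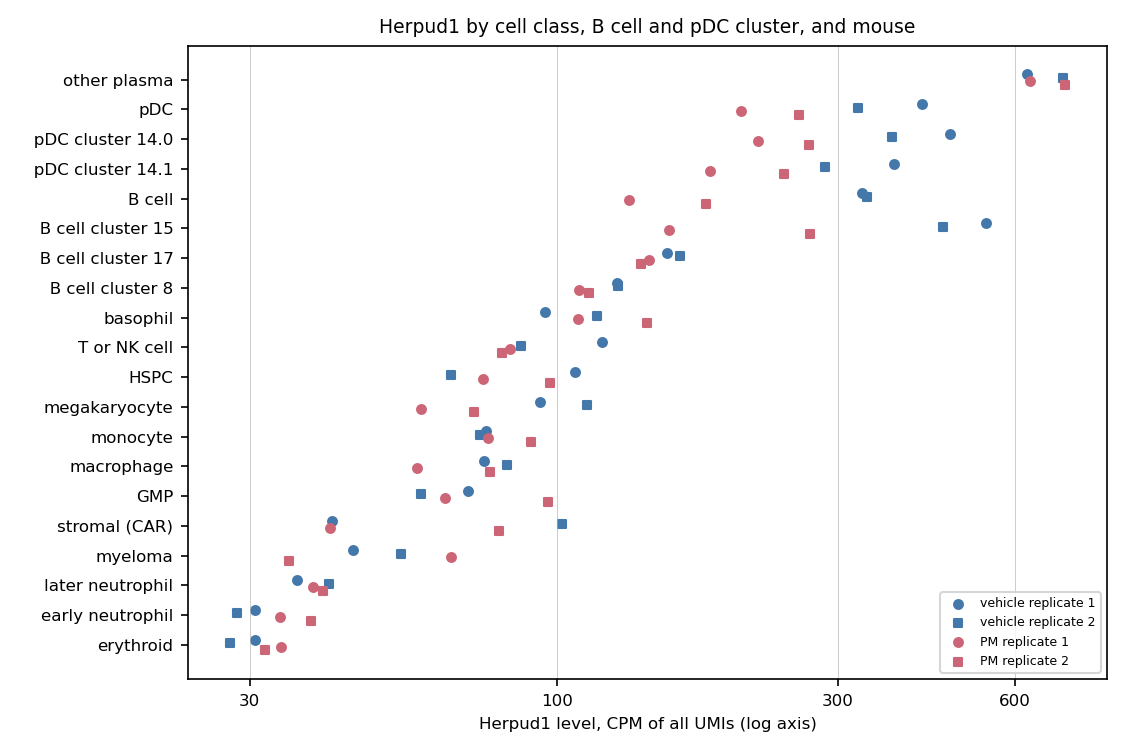
Herpud1 level (CPM of all UMIs, log axis) in 15 cell classes and in the clusters of B cells and pDC, with 1 point per mouse, blue for vehicle and red for PM. The PM mice lie to the left in pDC and in every B cell cluster, by most in cluster 15, the precursors with Rag1. They overlap with the vehicle mice in other plasma cells, where Herpud1 is highest at 631 to 731 CPM. Of the 15 classes, 4 have both PM mice below both vehicle mice and 3 have both above.

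Later neutrophils had 1 called gene of 39, Trib3, a pseudokinase induced through ATF4 (5.61% of 11246 genes were higher and 7.71% called in either direction). It rose from 1.83 and 1.05 CPM (54 and 20 UMIs) with vehicle to 3.72 and 3.86 CPM (92 and 82 UMIs) with PM (1.24, SE 0.302, adjusted p = 0.0335). The call was lost with DESeq2 (adjusted p = 0.0842) and without vehicle replicate 2 (0.0617), PM replicate 1 (0.197) or PM replicate 2 (0.137), and no cluster of the class held it. Spcs1 had an adjusted p of 0.0373 there but an absolute log2 fold change under 0.5. None of the 7 tested genes of ER-associated degradation and none of the 11 of the translocon and signal peptidase had a positive fold change in later neutrophils (median of all 39 genes -0.22, and -0.20 to -0.00045 in the 6 clusters of the class fitted by themselves), and translocon and signal peptidase summed to 848 and 858 CPM with vehicle and to 754 and 751 CPM with PM.

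In the other 9 classes 0 genes of the module were called. The share of all genes called was 0.869% in GMP, 0.0641% in HSPC, 1.1% in T or NK cells, 0.16% in basophils, 0.153% in erythroid cells, 0.0% in macrophages and in megakaryocytes, 1.28% in monocytes and 0.127% in stromal cells. Between 0 and 7 genes of the module per class had an unadjusted p under 0.05, and DESeq2 called 0 in each. Calls appeared in these 9 classes when vehicle replicate 1, vehicle replicate 2 or PM replicate 2 was left out. Those fits hold a single mouse in 1 group, and the share of all genes called in them is not given here.

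Gene by gene over the classes, some genes of the module, stress regulators and others, had the same sign in most classes. Atf4 was negative in 14 of 15 classes (smallest edgeR adjusted p 0.401), Ppp1r15a in 12 of 13 (0.276) and Ddit3 in 10 of 13 (0.116), without a call. Among the other regulators, Atf6 was negative in 8 of 14, Ern1 in 9 of 13 and Eif2ak3 in 8 of 13, while Trib3 was positive in 2 of 2. No share over all genes was set beside these counts. The classes come from the same 4 mice and are not independent. Ppp1r15a had 74.9 and 46.3 CPM against 13.2 and 36.4 CPM in monocytes (-1.40, SE 0.654, adjusted p = 0.502) and 181 and 98.6 CPM against 43.0 and 89.8 CPM in erythroid cells (-1.14, SE 0.527, adjusted p = 0.448). Among chaperones, Hsp90b1 and Dnajc3 were each negative in 13 of 15 classes and Sdf2l1 positive in 11 of 14. Sel1l, Ssr1 and Spcs3, of the other roles, were also each negative in 13 of 15. Hspa5 split into 6 positive and 9 negative classes.

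Of 126 further genes of the pathway in 5 lists, 125 were in the files. None was called in myeloma cells (119 tested, 12 at an unadjusted p under 0.05), other plasma cells (113 tested, 7) or pDC (115 tested, 12). Xbp1, the transcription factor downstream of IRE1, had 1177, 757, 729 and 1095 CPM in myeloma cells (-0.12, SE 0.233, adjusted p = 0.967) and 2083, 1502, 1368 and 1945 CPM in other plasma cells (-0.27, SE 0.291, adjusted p = 0.926). It was higher in other plasma cells in each mouse, and its vehicle and PM values overlapped in both classes. Mzb1, an ER chaperone of antibody-secreting cells, had 10.9, 60.7, 115 and 35.9 CPM in myeloma cells and 953, 857, 1139 and 1458 CPM in other plasma cells.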

How the data were processed

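The authors deposited raw UMI counts per gene and barcode for each of the 4 libraries, made with Cell Ranger 6.0.1 per the file headers and without normalization. The submitters' processing notes name GRCm39 and the study's methods GRCm38, and 32235 of 32285 gene IDs of the files were found in GENCODE M21 (GRCm38), so the build of the alignment is uncertain. RefSeq sequences of GRCm38.p6 were matched by symbol to 32 of 40 genes. Those without an entry were Atf6, Manf, Hyou1, Derl1, Sec61a1, Ssr2, Spcs3 and Sec11c.

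Barcodes entered with 300 genes or more and a mitochondrial share no higher than 20%, and 2500 variable genes, 30 principal components and 15 neighbors gave Leiden clusters at a resolution of 1 (scanpy 1.11.5, Python 3.11.15), with no integration of the mice. The 40 genes and the pathway lists were left out of the variable genes. Clusters were named from marker lists, with at least 3 raised markers and a margin of 0.4 (log2) over the next name, and these limits were set after the clusters had been seen. Doublets were kept and marked at a nominal 0.8% per 1000 barcodes, since the automatic threshold of Scrublet marked 0.043% to 5.737%.

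Counts were summed per mouse and class, for classes with at least 10 cells in every mouse, and tested by the quasi-likelihood method of edgeR 4.0.16, with TMM factors, filterByExpr and a robust fit, under R 4.3.3 and limma 3.58.1, as in the design of the study apart from the tool, with DESeq2 1.42.0 as an alternative. Differences of the PM effect between classes were tested as an interaction with the mouse as a block. The fit was tested on simulated data. Of genes changed 2-fold it recovered 45.2% in myeloma cells (8201 genes), 17.2% in other plasma cells (6004 genes) and 47.4% in pDC (7985 genes), and of genes changed 4-fold 95.7%, 85.6% and 95.8%. In B cells (10520 genes) and later neutrophils (11050 genes) it recovered 62.2% and 68% of 2-fold changes. Genes left unchanged were falsely called as well. There were 12 such calls in myeloma cells, 22 in other plasma cells, 8 in pDC, 20 in B cells and 25 in later neutrophils. In other plasma cells that is more than the 8 of 6362 genes called in the data.

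The genes and lists were chosen with earlier results of these data known. Values in every mouse are given for genes called in myeloma cells, other plasma cells, pDC or early neutrophils, for the most and least abundant gene of each role in myeloma cells, and for Hspa5, Derl3, Atf4, Ddit3, Trib3 and Ppp1r15a. Xbp1 and pathway genes called in either plasma cell class are also named, and other genes were named after their values were seen. Numbers 1 and 2 of the mice carry no pairing in the labels.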

Additional observations from a re-analysis of the deposited data

Results flagged for a closer look

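The effect of PM on 8 pairs of a gene and 2 classes differed between the classes by edgeR's interaction test, with comparisons that were chosen after the data had been seen. Herpud1 had a lower effect in pDC than in early neutrophils (difference -0.91, SE 0.192, adjusted p = 0.000871). In B cells minus early neutrophils the differences were -1.28 for Herpud1 (SE 0.181, adjusted p = 7.1e-10), -0.68 for Syvn1 (SE 0.202, adjusted p = 0.0230) and -0.59 for Sec11c (SE 0.167, adjusted p = 0.0152), where 4.85% of 11763 genes were called in either direction and 2.71% lower. In B cells minus myeloma cells they were 0.66 for Calr (SE 0.179, adjusted p = 0.0416), 0.76 for Manf (SE 0.209, adjusted p = 0.0445), 0.85 for Sel1l (SE 0.207, adjusted p = 0.0173) and -0.86 for Sec11c (SE 0.192, adjusted p = 0.00907), where 1.82% of 10796 genes were called in either direction. The share of Rag1-bearing precursors among B cells differed between the mice, and its part in the B cell differences was not tested. Between pDC and myeloma cells (0.223% of 9422 genes) and between later and early neutrophils (4.69% of 11397 genes) no gene of the module was called. The ratio of summed chaperones to summed sensors was lower in both PM mice than in both vehicle mice in myeloma cells and higher in both PM mice in 8 other classes, and this difference was not tested. Of those 8, only other plasma cells had a higher chaperone sum in both PM mice. The PM effect on the log2 ratio in the other class minus that in myeloma cells was 0.61 in other plasma cells, 0.63 in B cells, 0.42 in GMP, 0.61 in HSPC, 0.60 in T or NK cells, 0.45 in early neutrophils, 0.64 in monocytes and 0.63 in stromal cells, where all these differences share the myeloma values.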

How the results depend on the processing

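With 2 mice per group, single libraries set several calls. The counts of calls under the alternatives in this section have no share over all genes beside them. Leaving out each mouse in turn gave 0 to 2 called genes in pDC (1 with all mice, 0 without vehicle replicate 1 or PM replicate 1), 0 to 1 in early neutrophils, 1 to 2 in B cells (3 with all mice, 1 without vehicle replicate 2 or PM replicate 1), 0 to 1 in later neutrophils (0 without PM replicate 1) and 0 to 10 in the other 9 classes together. It gave 0 to 1 for the interaction of the 2 plasma cell classes (1 without PM replicate 1). The median log2 fold change ranged from -0.31 to -0.13 in myeloma cells and from -0.32 to 0.090 in other plasma cells. DESeq2 called 0 genes in pDC. Without a filter on low counts there were 2 calls in later neutrophils and 1 in the other 9 classes, and without doublets 1 in the latter. The median in other plasma cells was 0.089 without doublets, 0.094 without cells rich in neutrophil transcripts and 0.090 without PM replicate 1. Fitted by themselves, the clusters of pDC and of later neutrophils had 0 calls each, and those of B cells 8, 0 and 0.

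With the replicate block there were 2 calls in later neutrophils, 4 in B cells and 0 in myeloma cells, other plasma cells and the other 9 classes. The labels give same-numbered mice no shared origin, and the correlation of their deviations ran from -0.13 to 0.21 over the classes. A crossed replicate block, added after seeing the data, gave 2 calls in pDC and 4 in the other 9 classes.

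Without immunoglobulin in the total the log2 ratio of other plasma to myeloma cells moved from -0.28 to 0.88 for sensors, from -0.30 to 0.87 for chaperones, from 0.96 to 2.12 for ER-associated degradation and from 0.08 to 1.25 for the translocon and signal peptidase. Without cells rich in neutrophil transcripts that of sensors was -0.25. In myeloma cells the log2 fold change of Hspa5 turned to 0.011 without vehicle replicate 1 and to 0.012 without PM replicate 1. That of Ppp1r15a ranged from -0.33 to 0.48 with 1 mouse left out, and was negative without vehicle replicate 2 (-0.33) or PM replicate 2 (-0.12). Herpud1 in B cells kept its call under 13 of 13 alternatives (-1.29 to -0.91, adjusted p 1.7e-10 to 0.0400), Herpud1 in pDC under 11 of 14 (-0.89 to -0.54, 0.000273 to 0.411), Sec11c in B cells under 10 of 13 (-0.86 to -0.50, 0.000228 to 0.188), Syvn1 in B cells under 7 of 13 (-0.74 to -0.39, 0.00793 to 0.480) and Trib3 in later neutrophils under 9 of 13 (0.90 to 1.79, 0.000417 to 0.197). The cause was not tested in any of these cases. In myeloma and other plasma cells no alternative gave a call, but at this depth and number of mice the fit recovered only 45.2% and 17.2% of simulated 2-fold changes there. Those changes were placed in genes drawn from all that passed the filter, not in this module alone.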

Other observations

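Of the further genes of the pathway, those called after PM were 6 of 119 tested in B cells (5.05% of all genes), 7 of 119 in later neutrophils (7.71%), 2 of 115 in early neutrophils (3.07%), 2 of 120 in GMP (0.869%), 1 of 121 in monocytes (1.28%), 1 of 113 in T or NK cells (1.1%) and 0 in the other 9 classes. In B cells and in both neutrophil classes these shares lie near or below those of all genes and are no result about the lists. The genes that follow were named after their values were seen. In B cells Txndc11, a thioredoxin-like ER protein, fell from 139 and 173 CPM to 84.7 and 94.8 CPM (log2 fold change -0.83, edgeR adjusted p = 0.0039) and Edem3, a relative of Edem1 and Edem2, from 52.0 and 92.2 CPM to 33.2 and 37.0 CPM (-1.16, adjusted p = 0.0058). Asns, the asparagine synthetase induced through ATF4, fell in early neutrophils from 59.7 and 41.5 CPM to 25.1 and 27.1 CPM (-1.03, adjusted p = 0.00384) and in GMP from 53.1 and 34.6 CPM to 22.4 and 22.8 CPM (-1.01, adjusted p = 0.0308). Eif2ak2, the kinase PKR that senses double-stranded RNA and is itself induced by interferon, rose in early neutrophils from 11.5 and 9.81 CPM to 20.5 and 23.0 CPM (0.95, adjusted p = 0.00895) and in monocytes from 39.8 and 36.1 CPM to 71.4 and 60.2 CPM (0.78, adjusted p = 0.0417). In later neutrophils Atf6b, Txndc12, Selenos, Ost4, Rrbp1 and Golgb1 fell (log2 fold changes of -0.64 to -0.53) and Tmed3, of the ER to Golgi transport list, rose (0.55, adjusted p = 0.0382). Sec63, Srp14 and Tram2 also fell in B cells, where Tmed3 rose (1.02, adjusted p = 0.0128). Txndc5, a disulfide isomerase, rose in GMP (1.48, adjusted p = 0.0199), and Ddit4, a stress-induced inhibitor of mTORC1, fell in T or NK cells (-0.67, adjusted p = 0.0397).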
